A study of Drosophila melanogaster with 23 samples.

Results

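Zimbabwe2, a strain of Drosophila melanogaster, was set against each of 3 other strains on 1 two-colour microarray per pair, and these 3 arrays are described here. They were chosen by the sample labels as every array with Zimbabwe2 in either channel, which gave 3 of the 23 arrays of the series. The partner was Zimbabwe53 on the first, Canton S on the second and Oregon R on the third. Of the 20 other arrays, 18 carried other pairs of different strains, 6 of them among the 3 partners, and 2 carried Canton S or Zimbabwe53 against itself. The other 12 of the 18 brought in the strains Zimbabwe29, Zimbabwe30, Hikone R and St Louis, which enter the fits over all strains and the dye offset used below. In all groups the RNA came from whole adult males that had been reared at 25 °C and then held without females for 3 to 4 days. Extractions of 8 to 12 flies were pooled into 1 RNA sample per strain, and 2 µg of poly-A RNA went into each labelling. No mutation, transgene or treatment is named for any strain. The 3 arrays share a single Zimbabwe2 pool, so the errors and p-values below measure how far arrays differ and say nothing of the spread among separate batches of flies.

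Zimbabwe strains descend from flies of southern Africa, the region where the species originated, while Canton S and Oregon R are stocks kept in laboratories for many decades. Strains of 1 species carry different regulatory alleles, so the same gene can give different amounts of transcript in otherwise alike males. A two-colour array reports this as a ratio between the RNAs of its channels at each spotted cDNA, here called a feature, and gives no level for either strain. A feature that lies on the same side against every partner is a candidate for a difference of Zimbabwe2 from all of them, as far as its size exceeds the spread between arrays. A feature whose value changes with the partner reports differences among the partners as well.

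The values are log2 ratios, centred on the median of the array and turned so that Zimbabwe2 stands in channel 1. Which channel was the numerator of the deposited ratio is not given in the sources used here, so no strain is called higher or lower. Sides are named positive and negative, and a positive value has the deposited sign that Zimbabwe2 would have in channel 1. The base of the deposited logarithm was read as 10, a likely reading but not a stated one, and every fold rests on it. Channel 1 held Zimbabwe2 on the array with Canton S, and channel 2 held it on the others. No pair was repeated with the dyes exchanged.

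The arrays gave values for 3774 features with Zimbabwe53, 4972 with Canton S and 4751 with Oregon R, out of 6101 in the table. All 3 arrays measured 3608 features, and 1112 more were missing only on the array with Zimbabwe53. The SD of the log2 ratios was 0.34, 0.34 and 0.44 on the arrays with Zimbabwe53, Canton S and Oregon R, within the 0.28 to 0.52 of the 18 other arrays of different strains. The arrays of Canton S and Zimbabwe53 against themselves had SDs of 0.17 and 0.14. A size beyond 1.5-fold was reached by 6.60%, 6.09% and 7.14% of the features of the 3 Zimbabwe2 arrays, and by 1.27% and 0.617% of those of the arrays of 1 strain. Extremes differed more: 43 features passed 2-fold with Zimbabwe53, 91 with Canton S and 126 with Oregon R, where the largest ratio was 32.1-fold. A dye offset per feature, taken from the 8 pairs of other arrays with exchanged channels, correlated with the deposited values of the array with Zimbabwe53 at r = 0.43 across features. That correlation was 0.16 with Canton S and 0.06 with Oregon R, so the array with Zimbabwe53 carried the most of this offset. Spot intensities were not used here, and precision is limited by having 1 array per pair.

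**Figure D1:**
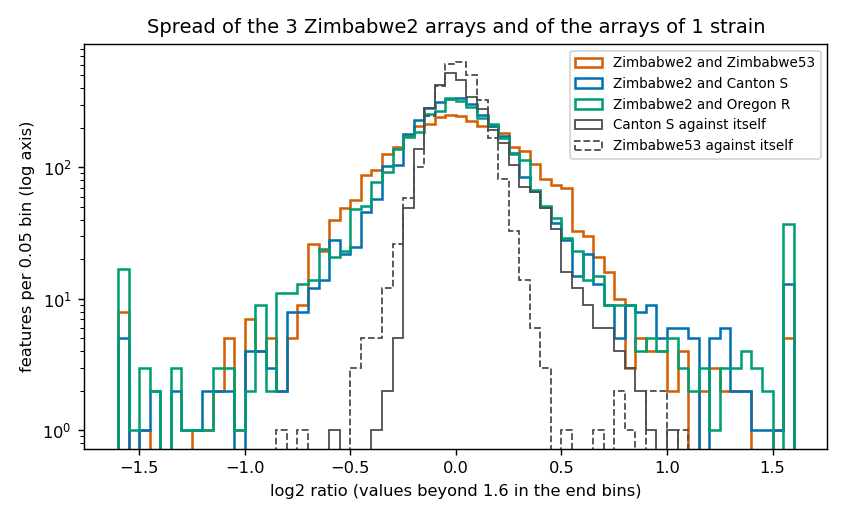
Histogram of log2 ratios for the features measured on all 3 Zimbabwe2 arrays (coloured lines, turned to Zimbabwe2 in channel 1) and for the same features on the 2 arrays of 1 strain against itself (grey lines, deposited sign). The horizontal axis is the log2 ratio, with sizes beyond 1.6 collected in the end bins, and the vertical log axis counts features per bin of 0.05. The Zimbabwe2 arrays are wider than the arrays of 1 strain, whose SDs are 0.17 and 0.14.

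Of the 3608 features, 1336 (37.0%) lay on the same side on all 3 arrays, 661 of them positive and 675 negative. Most were small: the median size on the weakest of the 3 arrays was 0.09, below the SDs of both arrays of 1 strain. Beyond 1.5-fold on every array there were 27 features (0.748%; 12 positive and 15 negative), and beyond 2-fold 6 (5 positive and 1 negative). Of the 27 features, 26 had a value on an array of 1 strain against itself and 0 passed 1.5-fold there. Over all features only 1.27% and 0.617% passed it on those arrays, so nothing is read from the 0. Of the 1329 same-side features with a dye offset, 977 (73.5%) kept their side on all 3 arrays after it was subtracted. Among the 27 larger features, the side was unchanged in all 26 that have an offset, and 20 remained beyond 1.5-fold on every array. Only 4 of the 27 carried a single gene name, which were CG5953, mag, CG31759 and Prm, against 1124 named features of the 3608. At the threshold of 0.585, the log2 of 1.5, the smallest size inside was 0.59 and the largest outside was 0.58.

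CG5953 (Entrez 34985, chromosome arm 2L) was the named gene with the largest size on its weakest array. It stood at 1.22 on the array with Zimbabwe53, 2.22 with Canton S and 2.77 with Oregon R, which is 2.33-fold, 4.66-fold and 6.82-fold. All 3 values were positive and none came near those of the arrays of 1 strain, 0.31 for Canton S and -0.21 for Zimbabwe53. In the limma fit over all strains, Zimbabwe2 differed from Zimbabwe53 by 1.31 ± 0.19 (SE; adjusted p = 0.00124), from Canton S by 2.20 ± 0.19 (adjusted p = 4.39e-06) and from Oregon R by 2.60 ± 0.20 (adjusted p = 6.8e-07). The partners themselves were not alike in this gene: on the 18 arrays without Zimbabwe2, Zimbabwe53 differed from Canton S by 0.86 ± 0.16 and from Oregon R by 1.26 ± 0.18, again on the positive side (adjusted p = 0.00503 and 0.00137). The first of these missed the threshold (adjusted p = 0.0559) when replicate 2 of the Canton S and Zimbabwe53 pair was left out.

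The gene mag (Entrez 40267, arm 3L) encodes magro, a lipase that the gut secretes to digest dietary fat. Its values were -0.86 with Zimbabwe53, -1.12 with Canton S and -2.38 with Oregon R, that is 1.82-fold, 2.17-fold and 5.19-fold on the negative side. The array with Oregon R stood well apart from the others. The fitted differences were -0.66 ± 0.10 from Zimbabwe53 (adjusted p = 0.00124), -1.34 ± 0.10 from Canton S (adjusted p = 1.39e-06) and -2.18 ± 0.10 from Oregon R (adjusted p = 4.62e-09). Part of that step also appeared between partners on arrays without Zimbabwe2, where Canton S differed from Oregon R by -0.83 ± 0.11 (adjusted p = 0.002).

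A second digestive enzyme gene, the serine protease yip7, followed mag in side and order. It stood at -0.58 with Zimbabwe53, just under the 1.5-fold line, at -1.27 with Canton S and at -1.89 with Oregon R. With the dye offset subtracted the value with Zimbabwe53 was -0.27. Zimbabwe2 differed from Canton S by -1.30 ± 0.14 (adjusted p = 2.57e-05) and from Oregon R by -1.68 ± 0.14 (adjusted p = 1.73e-06). The difference from Zimbabwe53 missed the threshold (-0.45 ± 0.14, adjusted p = 0.0847). On the arrays without Zimbabwe2, Zimbabwe53 itself lay on the negative side of both laboratory stocks in yip7. It differed from Canton S by -0.79 (adjusted p = 0.000553) and from Oregon R by -1.23 (adjusted p = 5.71e-05).

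Prm and Strn-Mlck, both muscle genes, lay on the negative side on every array. Prm encodes paramyosin, a core protein of the thick filament, and stood at -0.61, -0.67 and -0.76 with Zimbabwe53, Canton S and Oregon R. Strn-Mlck encodes a giant muscle protein of the titin and myosin light chain kinase family and stood at -0.94, -0.56 and -0.61 in the same order. The 3 values of Prm lay within 0.15 of each other, while Strn-Mlck was farther from 0 against Zimbabwe53 than against the laboratory stocks. That order did not hold with the dye offset subtracted. Strn-Mlck then stood at -0.71 with Zimbabwe53, -0.79 with Canton S and -0.38 with Oregon R. Fitted differences of Strn-Mlck were -0.67, -0.66 and -0.55 with SEs of 0.10 (adjusted p = 0.0023, 0.00131 and 0.0037), and those of Prm were -0.64, -0.74 and -0.60 with SEs of 0.12 (adjusted p = 0.00618, 0.00113 and 0.00492). With the array of Oregon R and Zimbabwe2 left out, Prm lost its calls against Zimbabwe53 and Oregon R (adjusted p = 0.0548 and 0.119). For neither gene did any of the 3 differences between partners pass the threshold on the arrays without Zimbabwe2.

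CG31759 (arm 2L) lay at -0.91, -0.65 and -0.66 with Zimbabwe53, Canton S and Oregon R, and CG8745 (arm 3L) at -0.56, -0.70 and -0.55. In CG31759 all 3 fitted differences of Zimbabwe2 passed (adjusted p = 0.00409, 0.0135 and 0.000729), in the order Zimbabwe53, Canton S and Oregon R. With the array of Zimbabwe2 and Zimbabwe53 left out, the first 2 were lost (adjusted p = 0.104 and 0.1), and the second was also lost when the Canton S and Zimbabwe2 array was left out (adjusted p = 0.108). Its value on the array of Canton S against itself was 0.47, the second largest among the named genes, after CG6094 at 0.82. In CG8745 the difference from Oregon R missed the threshold by little (adjusted p = 0.051). Its call against Canton S was lost without the Canton S or the Oregon R array of Zimbabwe2 (adjusted p = 0.0883 and 0.0708). On arrays without Zimbabwe2, Zimbabwe53 differed in CG8745 from Canton S by 0.38 and from Oregon R by 0.60 (adjusted p = 0.0105 and 0.00202). The first was lost without replicate 2 of Canton S and Zimbabwe53 (adjusted p = 0.0772).

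The remaining negative genes were smaller. Smn, whose product assembles the small nuclear ribonucleoproteins of the spliceosome, stood at -0.59, -0.42 and -0.39 against Zimbabwe53, Canton S and Oregon R. Rh50, an ammonium transporter gene of the Rhesus family, stood at -0.41, -0.39 and -0.69. Jabba, which encodes a protein of lipid droplets that holds histones, had a wider range, at -0.34, -1.14 and -1.34. Jabba was thus far from 0 against both laboratory stocks and nearer to 0 against Zimbabwe53, where its fitted difference was -0.50 ± 0.13 (adjusted p = 0.0392). That call was lost with any single Zimbabwe2 array left out (adjusted p = 0.0733 without the Zimbabwe53 one, 0.204 without the Canton S one and 0.136 without the Oregon R one). It was also lost without replicate 2 of Canton S and Zimbabwe53 (0.0582) and with arrays not centred (0.0525). CG31642, CG31683 and TP53INP, an autophagy gene, completed the 12 negative genes, with sizes of at least 0.33 on every array.

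Apart from CG5953, the positive genes were modest. Nup44A, a component of the nuclear pore, had the next largest weakest value, at 0.44 with Zimbabwe53, 0.48 with Canton S and 0.98 with Oregon R. Its fitted difference passed against Canton S (0.62 ± 0.10, adjusted p = 0.000989) and Oregon R (0.89 ± 0.10, adjusted p = 2.76e-05) but not Zimbabwe53 (0.31 ± 0.10, adjusted p = 0.0955). Crtc, a coactivator of the transcription factor CREB, stood at 0.30, 0.61 and 0.59, and rogdi, a gene needed for normal memory, at 0.37, 0.43 and 0.88. Crtc passed the fit against Canton S and Oregon R but not Zimbabwe53. The first call was lost without the Canton S and Zimbabwe2 array (adjusted p = 0.0759). On arrays without Zimbabwe2, Zimbabwe53 differed from Canton S and Oregon R by 0.42 and 0.60 in Crtc (adjusted p = 0.00834 and 0.00263). In Nup44A these differences were 0.32 and 0.59 (adjusted p = 0.0203 and 0.00177). With 1 array left out, the second was lost in Crtc (adjusted p = 0.0504) and the first in Nup44A (0.07). Prosbeta4R2, a testis paralogue of a proteasome subunit, stood at 0.28, 0.43 and 0.69. The other positive genes were Scamp, of secretory vesicle membranes, Set2, a histone H3 methyltransferase, CG31122, CG6094, CG13458, CG10011 and CG10077, with a smallest size of 0.26. On the array of Canton S against itself CG6094 stood at 0.82, beyond its 3 Zimbabwe2 values of 0.37, 0.37 and 0.63. CG13458 stood there at 0.39, beside 0.34 with Oregon R, and Set2 at 0.28, beside 0.26 with Canton S. The call of CG6094 against Zimbabwe53 (adjusted p = 0.0463) was lost under 10 of 17 alternatives. CG10077 has a further feature, at -0.13, 0.43 and 0.03, which does not share its side.

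All 24 same-side genes kept their side when the dye offset was subtracted and when arrays were not centred. Scaling centred arrays to the same spread cannot change a side, so it is no check. The 24 were chosen for a large weakest value, so a kept side was likely from the start and nothing is read from it. Scamp against Oregon R shrank from 0.29 to 0.03 with the offset subtracted, below the SDs of the arrays of 1 strain. Among the 24, 13 passed the fit against Zimbabwe53, 19 against Canton S and 20 against Oregon R. Over all 4841 features tested the calls were 226 (4.67%), 490 (10.1%) and 583 (12.0%), and the genes had been chosen for their sizes on the same 3 arrays, so nothing is read from that excess. All 3 differences passed in 11 genes, 9 negative and 2 positive, and 7 of these had no call between any 2 partners. TP53INP and CG10077 passed in none. CG5953, mag and Strn-Mlck kept all 3 calls under every alternative tried. Of the 11, only 4 kept all 3 calls when the Canton S and Zimbabwe2 array was left out, and 5 when either other Zimbabwe2 array was. A stricter question is whether the mean of the 3 dye-corrected arrays exceeded the spread among them. With 3 arrays, this limma test called 18 of 3591 features (0.501%; 10 positive and 8 negative), and 491 had an unadjusted p under 0.05. CG5953 was the only named gene called (mean 2.04 ± 0.26, adjusted p = 0.0285), and it missed without the array with Canton S (adjusted p = 0.612), without the dye offset (0.0887), with scaled arrays (0.0617) and over features measured on all 21 arrays (0.0517). For mag the mean was -1.39 ± 0.25 (adjusted p = 0.0579), and for CG31759, Prm and CG8745 the adjusted p was 0.0514. Leaving out 1 array changed the set of features tested as well as the calls. Without the array with Zimbabwe53 the test called 320 of 4620 features, and without that with Oregon R 41 of 3726. Without that with Canton S it called 0 of 3611, with 239 features at an unadjusted p under 0.05.

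**Figure D2:**
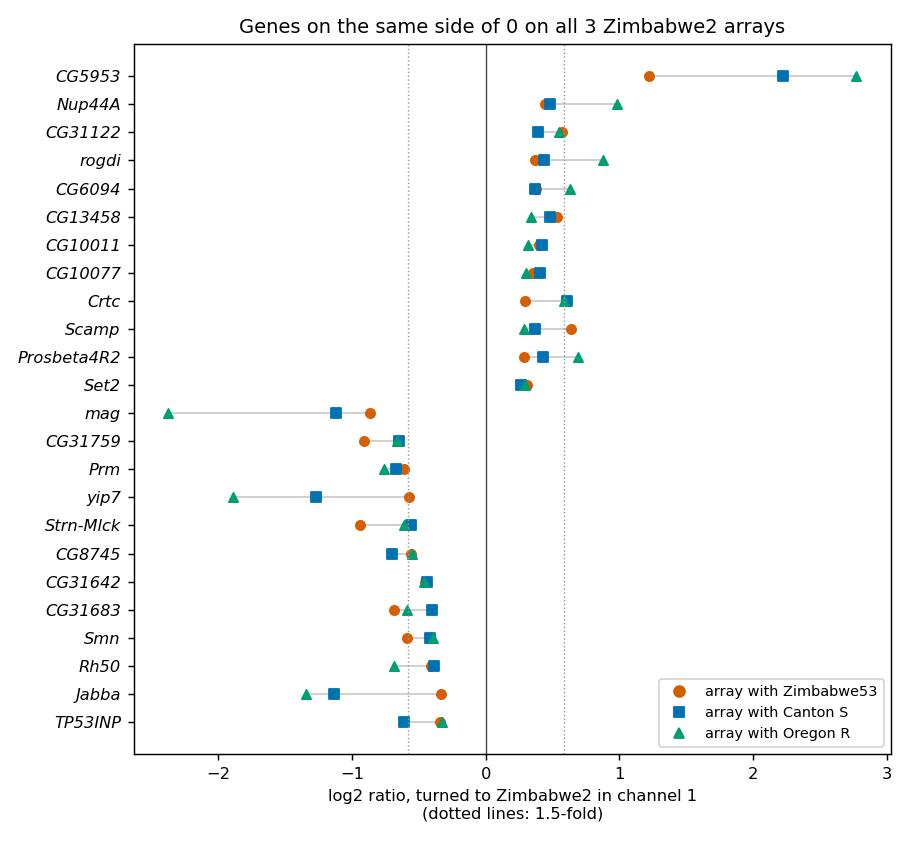
The 12 named genes per side with the largest size on their weakest array, among genes on the same side on all 3 Zimbabwe2 arrays. The horizontal axis is the log2 ratio turned to Zimbabwe2 in channel 1, each symbol is 1 array, grey lines join the 3 values of a gene and dotted lines mark 1.5-fold. CG5953, mag, CG31759 and Prm lie wholly beyond 1.5-fold, while Jabba, yip7 and mag spread widely between partners.

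The opposite pattern, a change of side with the partner, was rare at larger sizes. Of the 3608 features, 511 (14.2%) passed 1.5-fold on at least 1 array, and 243 of these lay on the same side on all 3. Only 22 (0.610%) passed 1.5-fold on both sides, and 10 passed 2-fold on both. The array with Zimbabwe53 stood alone on its side in 20 of the 22, that with Oregon R in 2 and that with Canton S in 0. Among features that split at any size, the array with Zimbabwe53 was again most often the one apart: of all 3608 features, it was alone on its side in 1041 features (28.9%), that with Canton S in 773 (21.4%) and that with Oregon R in 457 (12.7%). A gap of over 1.5-fold from the mean of the other 2 arrays was found in 405 features for Zimbabwe53, 177 for Canton S and 161 for Oregon R. After the dye offset was subtracted, these counts were 332, 128 and 198 of 3591 features, so that Zimbabwe53 stayed first and the other partners changed places.

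Both the arrays with Canton S and Oregon R passed 1.5-fold on the same side, with the array with Zimbabwe53 under 1.5-fold, in 83 features, 14 of them named. The matching count was 19 for Zimbabwe53 and Oregon R, and 10 for Zimbabwe53 and Canton S.

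Only 2 named genes passed 1.5-fold on both sides. CG4757 (Entrez 41330, arm 3R) stood at -0.73 with Zimbabwe53, 2.07 with Canton S and 1.19 with Oregon R, which is 1.66-fold on 1 side and 4.19-fold and 2.29-fold on the other. Zimbabwe2 thus lay between Zimbabwe53 and the laboratory stocks in this gene. On the arrays without Zimbabwe2, Zimbabwe53 differed from Canton S by 2.49 ± 0.10 (adjusted p = 2.23e-07), beside 2.80 between the Zimbabwe2 arrays, and from Oregon R by 1.76 ± 0.13 (adjusted p = 1.06e-05). The difference of Zimbabwe2 from the laboratory stocks kept its call under every alternative. That from Zimbabwe53 (-0.57 ± 0.12, adjusted p = 0.0124) lost it under 6 of 17 alternatives, with adjusted p values of up to 0.407. These were scaled arrays, both fits of single arrays with a dye term, and leaving out the Zimbabwe53 or the Canton S array of Zimbabwe2 or replicate 2 of Canton S and Zimbabwe53.

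Cpr72Ec (Entrez 39816, arm 3L) encodes a protein of the cuticle that binds chitin. It stood at 0.71 with Zimbabwe53, -1.43 with Canton S and -2.78 with Oregon R, or 1.63-fold, 2.70-fold and 6.87-fold. Here too Zimbabwe2 lay between Zimbabwe53 and the laboratory stocks, on sides opposite to those of CG4757. Without Zimbabwe2 arrays, Zimbabwe53 differed from Canton S by -1.88 ± 0.14 (adjusted p = 1.73e-05) and from Oregon R by -2.10 ± 0.15 (adjusted p = 8.36e-06). The latter was 3.49 in size between the Zimbabwe2 arrays, so the direct values spread more widely than the others. The fitted difference of Zimbabwe2 from Zimbabwe53 was 0.36 ± 0.21 and missed the threshold (adjusted p = 0.416).

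Mipp1 and NT5E-2, both genes of enzymes that release phosphate, each set a single partner apart. Mipp1, for a phosphatase of inositol polyphosphates, stood at 1.69 with Zimbabwe53 but at 0.18 with Canton S and -0.33 with Oregon R. The fit gave 1.85 ± 0.13 against Zimbabwe53 (adjusted p = 2e-06), 0.02 ± 0.13 against Canton S and -0.29 ± 0.13 against Oregon R, the last 2 past no threshold. NT5E-2, for an enzyme that cleaves AMP to adenosine outside the cell, stood at -0.19 with Zimbabwe53 and -0.35 with Canton S but at -2.46 with Oregon R, a size of 5.52-fold. On arrays without Zimbabwe2 the partner set apart was the same: Zimbabwe53 differed from Canton S and Oregon R by -1.86 ± 0.11 and -2.16 ± 0.12 in Mipp1. In NT5E-2 Oregon R was the partner that differed, with Zimbabwe53 minus Oregon R at -1.68 ± 0.09 and Canton S minus Oregon R at -1.63 ± 0.09.

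The array with Canton S stood apart in Cyp12d1-p, a mitochondrial cytochrome P450 gene known for induction by insecticides. Its values were 0.20 with Zimbabwe53, 1.23 with Canton S and -0.43 with Oregon R. A near-identical neighbouring copy, Cyp12d1-d, could hybridise to the same spot, so the value may cover both. Canton S differed from Oregon R by -1.88 ± 0.10 on the arrays without Zimbabwe2 (adjusted p = 4.74e-06), beside -1.66 between the Zimbabwe2 arrays. Non1, a nucleolar protein gene of ribosome assembly, had the same order at smaller sizes, with -0.04, 0.72 and -0.51. In Non1 the difference between Canton S and Oregon R was -1.16 ± 0.11 (adjusted p = 0.0003). The smaller difference of Zimbabwe2 from Oregon R was lost for Non1 with any single Zimbabwe2 array, or replicate 2 of Canton S and Zimbabwe53, left out (highest adjusted p = 0.173), and with the Oregon R one left out for Cyp12d1-p (adjusted p = 0.052).

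Ugt35A1 and CG9297 were negative against the laboratory stocks and not against Zimbabwe53. Ugt35A1, a UDP-glycosyltransferase gene of detoxification, stood at 0.03, -0.70 and -1.84 with Zimbabwe53, Canton S and Oregon R. CG9297 stood at 0.34, -1.19 and -1.45 in the same order. Zimbabwe2 differed from Zimbabwe53 by -0.10 ± 0.12 in Ugt35A1 and -0.09 ± 0.13 in CG9297 (adjusted p = 0.712 and 0.76). On arrays without Zimbabwe2, Zimbabwe53 differed from Oregon R by -1.30 ± 0.10 in Ugt35A1 and -1.19 ± 0.10 in CG9297 (adjusted p = 1.32e-05 and 3.72e-05).

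These 9 genes, mag included, were chosen by the gap of 1 partner's array or by values on both sides. The difference between 2 partners was then fitted on arrays that this choice did not use, all 18 of them, so that routes through other strains also enter. Both arrays of a pair gave a value in most of these genes. Only 1 of the 2 did for Zimbabwe53 and Oregon R in CG4757, and for Canton S with either other partner in Cpr72Ec and mag. There, 8 of the 9 passed for Zimbabwe53 against Canton S, 9 for Zimbabwe53 against Oregon R and 6 for Canton S against Oregon R. Over all 4834 features the calls were 852 (17.6%), 550 (11.4%) and 157 (3.25%). The RNA pools of the partners are the same on both kinds of array, so this repeats the measurement and not the flies.

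**Figure D3:**
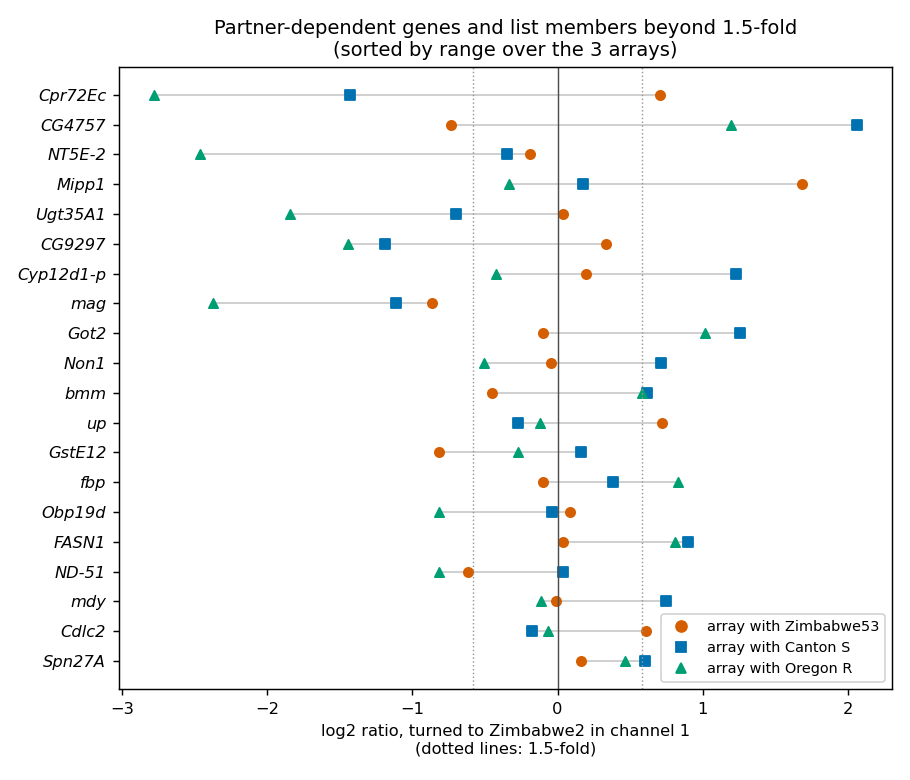
Log2 ratios on the 3 Zimbabwe2 arrays, turned to Zimbabwe2 in channel 1, for the genes chosen by the gap of 1 partner and for list members beyond 1.5-fold on an array, sorted by range. Each symbol is 1 array, grey lines join the 3 values and dotted lines mark 1.5-fold. Cpr72Ec and CG4757 pass 1.5-fold on both sides, Mipp1 is far from 0 only with Zimbabwe53 and NT5E-2 only with Oregon R.

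Across features, the difference between 2 Zimbabwe2 arrays was set beside the same partner difference on the arrays that joined those partners directly. For Zimbabwe53 and Oregon R the values correlated at r = 0.77 over 2653 features, and for Canton S and Oregon R at r = 0.73 over 3282. For Zimbabwe53 and Canton S r was 0.55 over 3383 features, and 0.61 after the dye offset was subtracted. The same subtraction lowered r to 0.70 for Canton S and Oregon R. For Zimbabwe53 and Oregon R it could change nothing. Zimbabwe2 lay in channel 2 on both of those arrays, so the offset cancels between them. These are descriptions across features that share RNA pools, the spotted cDNA and the annotation. The SD of the disagreement was 0.40, 0.32 and 0.22 for Zimbabwe53 and Canton S, Zimbabwe53 and Oregon R, and Canton S and Oregon R. After the dye offset was subtracted this SD was lower for the first pair, at 0.35, and higher for the third, at 0.26. For the second pair it could not change, for the reason given above. A single partner-dependent value under about these sizes is thus no larger than the disagreement between routes.

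**Figure D4:**
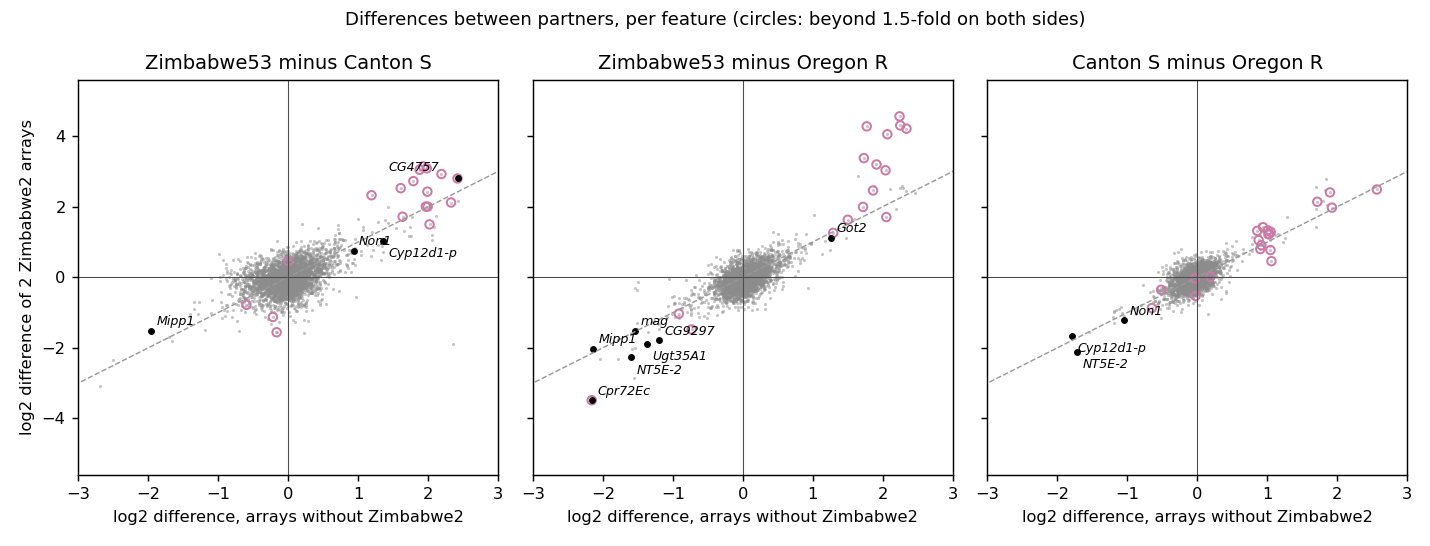
Each point is a feature: the log2 difference between 2 partners on arrays without Zimbabwe2 (horizontal) and the same difference taken between 2 Zimbabwe2 arrays (vertical), for the 3 pairs of partners. The dashed line marks equal values, circles mark features beyond 1.5-fold on both sides and black points are named genes. Most circled features on the right of the middle panel lie above the dashed line, while Cpr72Ec lies below it, with a difference of -3.49 between the Zimbabwe2 arrays.

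Most of the 22 features with values beyond 1.5-fold on both sides had no gene name here, and 12 lay in the last 2 rows of the print grid, which held 89 of the 3608 features. These 12 took only 4 row and column positions in 9 blocks of the grid, with up to 6 features at the same position of different blocks, and none had a gene name. All of them ran from -2.32 to -0.63 with Zimbabwe53, from 0.73 to 1.56 with Canton S and from 1.71 to 3.67 with Oregon R. Without these rows, 10 features in place of 22 passed 1.5-fold on both sides, and the test of the mean of the 3 arrays called 70 features in place of 18. Of the 22, 17 had the same partner difference on arrays without Zimbabwe2, and all 17 had the same sign there, 15 beyond 2-fold. The median was 3.03 between the Zimbabwe2 arrays and 1.91 on the others. A kept sign was general among all features beyond 2-fold between 2 Zimbabwe2 arrays. It was found in 83 of 91 for Zimbabwe53 and Canton S, 76 of 76 for Zimbabwe53 and Oregon R, and 42 of 43 for Canton S and Oregon R. Features of the last rows were not prominent among the same-side ones, with 1 of the 27.

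Functional gene lists were then read against all 1061 named genes. Of these, 192 were positive on every Zimbabwe2 array, 182 were negative and 687 split, and 122 (11.5%) passed 1.5-fold on at least 1 array. Fitted differences were called in 4.67%, 10.1% and 12.0% of all 4841 features against Zimbabwe53, Canton S and Oregon R. These shares stand beside every count of calls in a list below. The lists are small, so nothing is read from such counts. Whole males hold many tissues, and a change in the amount of a tissue cannot be told apart from a change of transcript in its cells. Tissue identity could not be checked either, since ratios carry no level and 0 of 34 listed accessory gland genes and only 1 of 35 ovary and yolk genes was measured on all 3 arrays.

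Of 6 muscle genes measured, 3 were negative on every array and 0 positive. These were Prm and Strn-Mlck, described above, and Msp300, a nesprin of muscle nuclei, at -0.25, -0.32 and -0.26 with Zimbabwe53, Canton S and Oregon R. Prm and Strn-Mlck passed in all 3 fitted differences and Msp300 in none (adjusted p = 0.339, 0.238 and 0.26). The other 3 muscle genes split, and flr among them passed on the positive side against Oregon R (0.33 ± 0.10, adjusted p = 0.0357). The troponin T gene up stood at 0.72 with Zimbabwe53 but -0.28 and -0.12 with the laboratory stocks. With 3 of its 6 genes split, the list was not of 1 side. Its median was negative on all 3 arrays, at -0.15, -0.30 and -0.19, against 0.03, -0.02 and 0.01 over all named genes.

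Of 5 genes on the list of digestive lipases and proteases, 3 were negative on every array, namely mag, yip7 and the smaller sphe at -0.45, -0.03 and -0.28. A place on this list does not show a digestive role. Fitted differences passed for mag alone against Zimbabwe53. Against each laboratory stock, mag and yip7 passed on the negative side and bmm on the positive side. The product of bmm, brummer, is a lipase of stored rather than dietary fat, and bmm stood at -0.45 with Zimbabwe53, 0.61 with Canton S and 0.58 with Oregon R. Its positive calls were weak (adjusted p = 0.022 and 0.0429) and both were lost when either the Canton S or the Oregon R array of Zimbabwe2 was left out (highest adjusted p = 0.227 and 0.413). That against Oregon R was also lost without replicate 2 of Canton S and Zimbabwe53, replicate 1 of Canton S and Oregon R, or either array of Oregon R and Zimbabwe53.

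Of 10 lipid genes measured, 8 split between sides and 2 were called, both positive. Calls numbered 0 against Zimbabwe53, 2 against Canton S and 1 against Oregon R, near the shares over all features. FASN1, the fatty acid synthase gene, stood at 0.04 with Zimbabwe53, 0.90 with Canton S and 0.81 with Oregon R. The fit gave 0.06 ± 0.10, 0.86 ± 0.10 and 0.92 ± 0.10, of which the last 2 passed (adjusted p = 4.82e-05 and 2.15e-05). The enzyme gene mdy, for the last step of triglyceride synthesis, instead stood apart only against Canton S, at -0.01, 0.74 and -0.11. Its difference from Canton S passed (0.68 ± 0.11, adjusted p = 0.000989).

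Central metabolism gave a similar contrast in Got2, the mitochondrial aspartate aminotransferase gene, at -0.10, 1.26 and 1.01 with Zimbabwe53, Canton S and Oregon R. Got2 passed against Canton S (1.02 ± 0.12, adjusted p = 4.96e-05) and Oregon R (1.25 ± 0.12, adjusted p = 7.1e-06) but not against Zimbabwe53 (0.14 ± 0.12, adjusted p = 0.588). In both FASN1 and Got2 the Zimbabwe53 arrays without Zimbabwe2 showed the same step: 0.82 ± 0.08 and 0.86 ± 0.09 from Canton S and Oregon R in FASN1, and 0.89 ± 0.10 and 1.11 ± 0.11 in Got2. The genes of sugar store use, Glyp for glycogen phosphorylase and Treh for trehalase, lay on the negative side on all 3 arrays, at -0.38, -0.22 and -0.47 and at -0.33, -0.12 and -0.14. Neither passed in any fitted difference. The gluconeogenic gene fbp stood at -0.10, 0.38 and 0.83 and passed only against Oregon R (adjusted p = 0.027), a call lost when the Canton S or the Oregon R array of Zimbabwe2, or replicate 2 of Canton S and Zimbabwe53, was left out (highest adjusted p = 0.345), and in the fit with the title stem as a random block (adjusted p = 0.0627).

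Of 7 testis genes, 3 were positive on every array and 0 negative: Prosbeta4R2, and the neighbouring genes janB, at 0.26, 0.14 and 0.16, and ocn, at 0.13, 0.08 and 0.25. Only Prosbeta4R2 passed a fitted difference, against Canton S (0.43 ± 0.12, adjusted p = 0.0363) and Oregon R (0.77 ± 0.12, adjusted p = 0.00083). The call against Canton S was lost with any single Zimbabwe2 array left out, and with replicate 1 of Canton S and Oregon R left out (highest adjusted p = 0.227). The dynein light chain gene Cdlc2 passed 1.5-fold only with Zimbabwe53, at 0.61, beside -0.18 and -0.06 with Canton S and Oregon R. No fitted difference of Zimbabwe2 in Cdlc2 passed, the smallest adjusted p being 0.323.

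Of 7 detoxification genes, 0 were positive on every array, 2 were negative and 5 split. Ugt35A1 and Cyp12d1-p, described above, were the largest. Cyp4ac1, another cytochrome P450 gene, stood at -0.52, -0.03 and -0.35 with Zimbabwe53, Canton S and Oregon R. Its fitted difference passed only against Zimbabwe53, at -0.95 ± 0.14 (adjusted p = 0.00124), a larger size than the array of that pair itself gave. GstZ2, a glutathione transferase gene, stood at -0.08, 0.29 and 0.39 and passed only against Canton S (0.44 ± 0.12, adjusted p = 0.0312). GstE12, of the same enzyme family as GstZ2, stood at -0.82 with Zimbabwe53, 0.16 with Canton S and -0.27 with Oregon R and passed in no fitted difference. Single members of other lists also depended on the partner. The odorant-binding protein gene Obp19d stood at 0.08, -0.04 and -0.82 with Zimbabwe53, Canton S and Oregon R, and only the difference from Oregon R passed (-0.82 ± 0.11, adjusted p = 0.000179). ND-51, a subunit gene of respiratory complex I, stood at -0.62, 0.04 and -0.82, and the array with Canton S was the one near 0. Its differences from Zimbabwe53 and Oregon R passed (adjusted p = 0.0263 and 0.00486) and were both lost when the Oregon R and Zimbabwe2 array was left out (adjusted p = 0.139 and 0.113). The first was also lost without the Zimbabwe53 array of Zimbabwe2 (0.157), without the Canton S one (0.0862) and without replicate 2 of Canton S and Zimbabwe53 (0.0632). Spn27A, an inhibitor gene of the melanisation and Toll proteases, was positive throughout at 0.16, 0.60 and 0.47, and passed against Canton S (adjusted p = 0.00676) and Oregon R (adjusted p = 0.00129). The first of these was lost when the Canton S and Zimbabwe2 array was left out (adjusted p = 0.0592). The 5 proteasome genes and the 3 ribosomal protein genes measured held 0 members beyond 1.5-fold and 0 calls, too few genes to be set apart from the shares over all features.

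**Figure D5:**
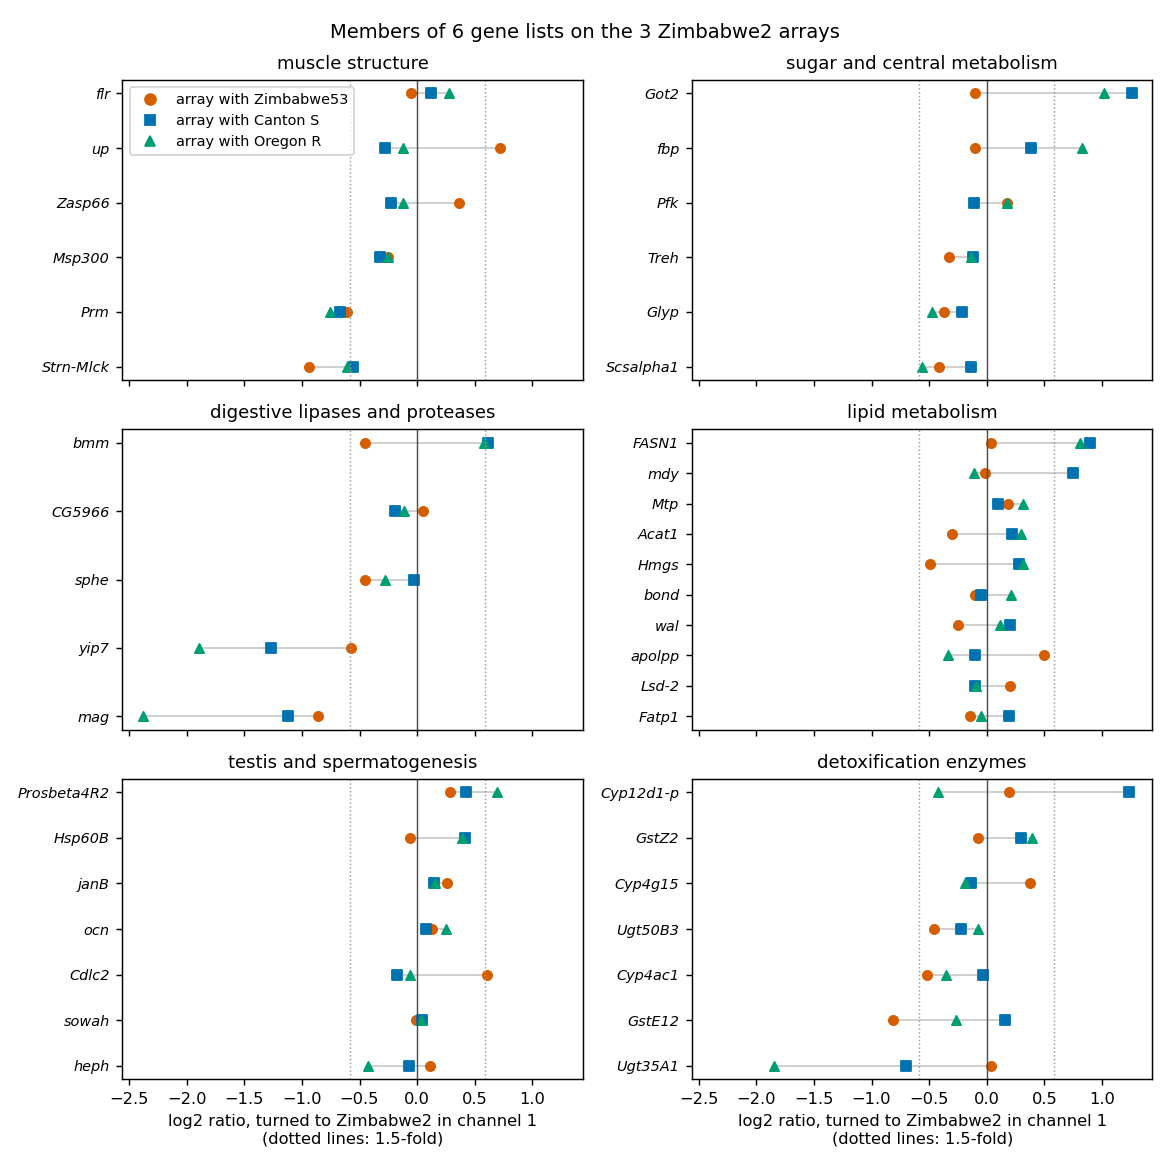
Members of 6 gene lists measured on all 3 Zimbabwe2 arrays, sorted by the mean of the 3 values. The horizontal axis is the log2 ratio turned to Zimbabwe2 in channel 1, each symbol is 1 array and dotted lines mark 1.5-fold. Prm, Strn-Mlck, mag and yip7 lie left of 0 on every array, and FASN1 and Got2 lie right of it only with Canton S and Oregon R, apart from 0.04 in FASN1 with Zimbabwe53.

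By chromosome arm, the share of named features on the same side was 34.0% on X, 38.9% on 2L, 39.0% on 2R, 37.9% on 3L, 28.4% on 3R and 7.69% on chromosome 4, where it was 1 of only 13 features. No test was made.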

How the data were processed

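Per the labels, whole-male RNA of 8 strains was compared on 23 spotted two-colour cDNA arrays. The authors deposited log ratios with no stated base, read here as log10 ratios, in a table of 6101 features. Scanner, spot filter and normalization: not given in the sources used here. Values were multiplied to the log2 scale, each array was centred on its median, and the 3 Zimbabwe2 arrays were turned to Zimbabwe2 in channel 1. Single-array values carry no dye correction. The fits subtract a dye offset per feature, estimated from at least 3 of 8 channel-exchanged pairs. limma 3.58.1 in R 4.3.3 fitted (a) the mean of the 3 arrays, (b) 8 strain levels to 13 pair averages weighted by arrays, and (c) 7 strain levels to the 10 pairs without Zimbabwe2. Calls need a Benjamini-Hochberg adjusted p under 0.05 within a comparison over all features tested, and the fits were tested on simulated data.

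Gene names came from the platform annotation: 1943 features had 1 symbol, all matched by Entrez identifier to the Release 6 gene table, which gave the arms, and 67 had several and 4091 none. For genes with several features (40, of which 26 had all features in 1 class of side), the feature on most arrays was used. Named are the 12 genes per side with the largest weakest value, the 4 largest gaps per partner over 1.5-fold, up to 10 genes beyond 1.5-fold on both sides, list members beyond 1.5-fold on an array, and mag, CG31759, CG5953 and CG4757. The genes and lists were chosen with earlier results of these data known. Classes of 2 arrays against the third, and the smaller list members, were described after their values were seen.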

Additional observations from a re-analysis of the deposited data

Results flagged for a closer look

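Of the 43 named genes, 18 met 2 conditions for at least 1 pair of partners. The partners differed on the arrays without Zimbabwe2 (limma, adjusted p under 0.05), and by over 1.5-fold with the same sign between Zimbabwe2 arrays. Over all 4834 features, the first condition alone was met by 17.6% for Zimbabwe53 against Canton S and 11.4% for Zimbabwe53 against Oregon R. For Canton S against Oregon R it was 3.25%. The share of all features meeting both was not counted. The 43 were chosen largely by size on the Zimbabwe2 arrays, so nothing is read from the count. The partner difference of largest size on the arrays without Zimbabwe2 is given for each. Between Zimbabwe53 and Canton S it was 2.49 in CG4757 (adjusted p = 2.23e-07) and 0.61 in bmm (adjusted p = 0.00132). Between Zimbabwe53 and Oregon R it was negative in Mipp1 at -2.16, Cpr72Ec at -2.10, NT5E-2 at -1.68, mag at -1.52, Ugt35A1 at -1.30, yip7 at -1.23, CG9297 at -1.19, Jabba at -0.79 and up at -0.47, with adjusted p from 1.83e-06 to 0.012. For the same pair it was positive in CG5953 at 1.26, Got2 at 1.11 and FASN1 at 0.86, with adjusted p from 9.23e-05 to 0.00137. Between Canton S and Oregon R it was -1.88 in Cyp12d1-p, -1.16 in Non1, -0.90 in Obp19d and -0.78 in mdy, with adjusted p from 4.74e-06 to 0.00158. The 9 partner-dependent genes of the report are among the 18. Groups of 3 arrays were not searched for outlying arrays.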

How the results depend on the processing

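The count of features called for the mean of the 3 Zimbabwe2 arrays moved most. It went from 18 to 6 with no dye offset, 1 over features measured on all 21 arrays and 70 without the last 2 grid rows. With 1 Zimbabwe2 array left out it lay between 0 of 3611 and 320 of 4620 features tested. The 0 came from limma without the Canton S array, with 239 features at an unadjusted p under 0.05. With 1 array left out, calls ranged from 107 to 295 for Zimbabwe2 minus Zimbabwe53 (226 in the report), 240 to 610 for minus Canton S (490) and 218 to 727 for minus Oregon R (583). They ranged from 440 to 859 for Zimbabwe53 minus Canton S (852), 364 to 679 for Zimbabwe53 minus Oregon R (550) and 88 to 216 for Canton S minus Oregon R (157). Over features measured on all 21 arrays, which are fewer, the first 5 of these counts were 138, 248, 309, 447 and 308. Equal weights gave 394 for Zimbabwe2 minus Zimbabwe53. Scaled arrays gave 766, 915 and 365 for Zimbabwe2 minus Canton S, Zimbabwe2 minus Oregon R and Canton S minus Oregon R. Single arrays with a dye term gave 262 for the last, and 251 with the title stem as a random block. The causes were not tested.

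Same-side features numbered 1857 to 3057 on 2 arrays, and 38 to 160 beyond 1.5-fold, since fewer arrays must share a side. Over features measured on all 21 arrays they were 686 and 16, with 10 on both sides and gaps of 179, 85 and 72 for Zimbabwe53, Canton S and Oregon R. At 2-fold the counts were 6 on the same side, 10 on both sides and gaps of 95, 18 and 64. Without the last 2 grid rows 10 lay on both sides, and scaled arrays gave 291 gaps for Canton S. Of 134 named-gene calls, 85 held under every alternative run, and 135 of 2206 refits lost a call with 0 reversed. No paired analysis was possible because replicate numbers follow accession order only and each Zimbabwe2 pair has 1 array. Arrays do share title stems, each Zimbabwe2 array with 1 array of another pair. With the stem as a random block the estimated correlation was 0.466 over all strains and 0.211 without Zimbabwe2, and 3 of 133 named-gene calls were lost: CG4757 and CG6094 against Zimbabwe53 (adjusted p = 0.2 and 0.152) and fbp against Oregon R (0.0627).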

Other observations

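The gene sowah, of the testis list, has 2 features that disagree, noticed after their values were seen. The feature used above stood at -0.01, 0.04 and 0.03 with Zimbabwe53, Canton S and Oregon R, and the other at 0.42, 1.42 and 1.38. The second is positive on all 3 arrays and beyond 2-fold against both laboratory stocks. Which of them reports the transcript was not tested.

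Some of the largest values belong to features with no gene name here. The feature with the largest weakest value of all stood at -1.94, -2.09 and -2.50, and its neighbour in the same grid row stood on the other side, at 1.87, 1.69 and 1.36. Another unnamed feature stood at -0.75 with Zimbabwe53 but at -3.83 and -3.07 with Canton S and Oregon R.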
